A study of Mus musculus with 135 samples.

Results

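The genes described here encode the enzymes of glycolysis and the tricarboxylic acid (TCA) cycle with the steps that join them. Of 38 listed genes, 37 were among the 15181 RefSeq genes of the count table, and *Pcx* (pyruvate carboxylase) had no entry. The 37 members comprised 2 transporters (*Slc2a1*, *Slc16a1*), 14 glycolysis genes, 2 lactate dehydrogenase genes, 3 pyruvate dehydrogenase (PDH) kinase genes, 4 genes of the PDH complex and 12 TCA cycle genes. The rule lists the genes by name and uses no measured value.

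Single haematopoietic stem cells (HSCs) were sequenced to compare young with old mice. The cells were sorted from bone marrow as Lin-Sca-1+c-Kit+ (LSK) CD150+CD48- cells of C57BL/6 mice that carried the *Vwf*-eGFP reporter, a transgene in which the promoter of von Willebrand factor drives a fluorescent protein, so the reporter was present at both ages. The young group (2 to 3 months) and the old group (20 to 25 months) were 1 mouse each and gave 61 and 74 cells on microfluidic chips, with no capture run given per cell. The 52 young and 62 old cells that passed the first set of quality criteria in the study are the basis of the values below. Age, mouse and whatever its sorting and capture brought with it cannot be told apart, so differences between ages are given as descriptions without a test.

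Glycolysis splits glucose into pyruvate in the cytosol, and lactate dehydrogenase turns pyruvate into lactate and back. The PDH complex carries pyruvate into the mitochondrial TCA cycle as acetyl-CoA, and PDH kinases switch that complex off by phosphorylation. HSCs reside in a bone marrow environment low in oxygen and are known for a metabolism that leans on glycolysis while they are quiescent.

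Counted reads per cell ranged from 273236 to 5688706 in young and from 276316 to 4086659 in old cells, with medians of 2798990 and 2116024. Of 13 HSC genes, 7 were expressed in at least 50% of the cells, young and old together. Between the ages 8 of the 13 were higher and 5 lower in old cells, with a median difference (old minus young of the mean log2(CPM + 1)) of 0.23. The best detected were *Meis1*, an HSC transcription factor, in every cell, and *Kit* in 49 of 52 young and 61 of 62 old cells. *Slamf1*, which encodes the sorting marker CD150, was expressed in 9 and 15 cells, and *Cd48* in 1 and 0 cells, where 0 of 62 allows a share of up to 4.84%. Several lists differed between the ages over the same cells. The median difference, old minus young of the mean log2(CPM + 1), was -1.06 over 42 S phase genes, -0.99 over 54 G2/M genes, 1.14 over 22 immediate early genes (17 higher in old cells, summed level 699 to 18025 CPM per young and 748 to 24469 CPM per old cell) and 0.85 over 15 platelet and megakaryocyte genes. Of the platelet genes 12 of 15 were higher in old cells, with a summed level of 0 to 2731 CPM per young and 52 to 6678 CPM per old cell. Of 11 erythroid genes 4 had an entry in the count table and 3 had reads, and the haemoglobin genes had no read or no entry. Of 8 B cell genes 2 had an entry and 1 had reads, *Cd79b*, which was expressed in 12 young and 16 old cells. Genes without an entry show nothing about the cells. Of 6 T and NK cell genes 4 had reads, *Cd3d* in 16 and 16 cells above the limit, *Nkg7* in 10 and 15, *Cd8a* in 3 and 3 and *Cd4* in 5 and 0. Of 10 granulocyte and macrophage genes 7 had reads, with a summed level of 0.352 to 1984 CPM per young and 0.758 to 2348 CPM per old cell. Among these *Prtn3* was found in 38 young and 59 old cells, with a difference of 2.49, and *Lyz2* in 43 and 43, while *Mpo* was found in 2 and 1. *Cd34* was found in 28 young and 23 old cells and *Flt3* in 5 and 2. *Xist* was expressed in 50 young and 8 old cells, and Y-linked genes (any of 4) in 2 and 58. The part of these differences in the values of the members was not tested beyond the split by cell cycle genes given below.

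The level of a gene is the mean over cells of log2(CPM + 1), where CPM scales the counts of each cell to a total of 1000000, and a gene counted as expressed in a cell above a value of 2. All 37 members reached 10% of the cells, young and old together, and 18 reached 50%. The median difference of the members between the ages was 0.03, with 19 higher in old and 18 in young cells. The median was -0.02 over all 15014 genes with a read and -0.07 over the 9374 genes that reached 10% of cells. The members' median was -0.08 over all cells of the table and -0.12 over cells with at least 1000000 reads, so its sign depended on the cells used. Differences of at least 1, which is 2-fold on this scale, were found for 7 members.

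The 4 members higher in old cells by at least 1 were *Ldha*, *Hk2*, *Pfkp* and *Ldhb*. They make up 10.8% of the members, against 3.91% of all genes with a read and 6.24% of genes that reached 10% of cells. The 3 members lower by at least 1 were *Idh3g*, *Pdk1* and *Pfkm*, or 8.11% of the members, against 4.49% and 6.98% of the same sets of genes. For every member the ranges over young and old cells overlapped. The share of all genes with overlapping ranges was not determined, so this is not read as a property of the members.

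**Figure D1:**
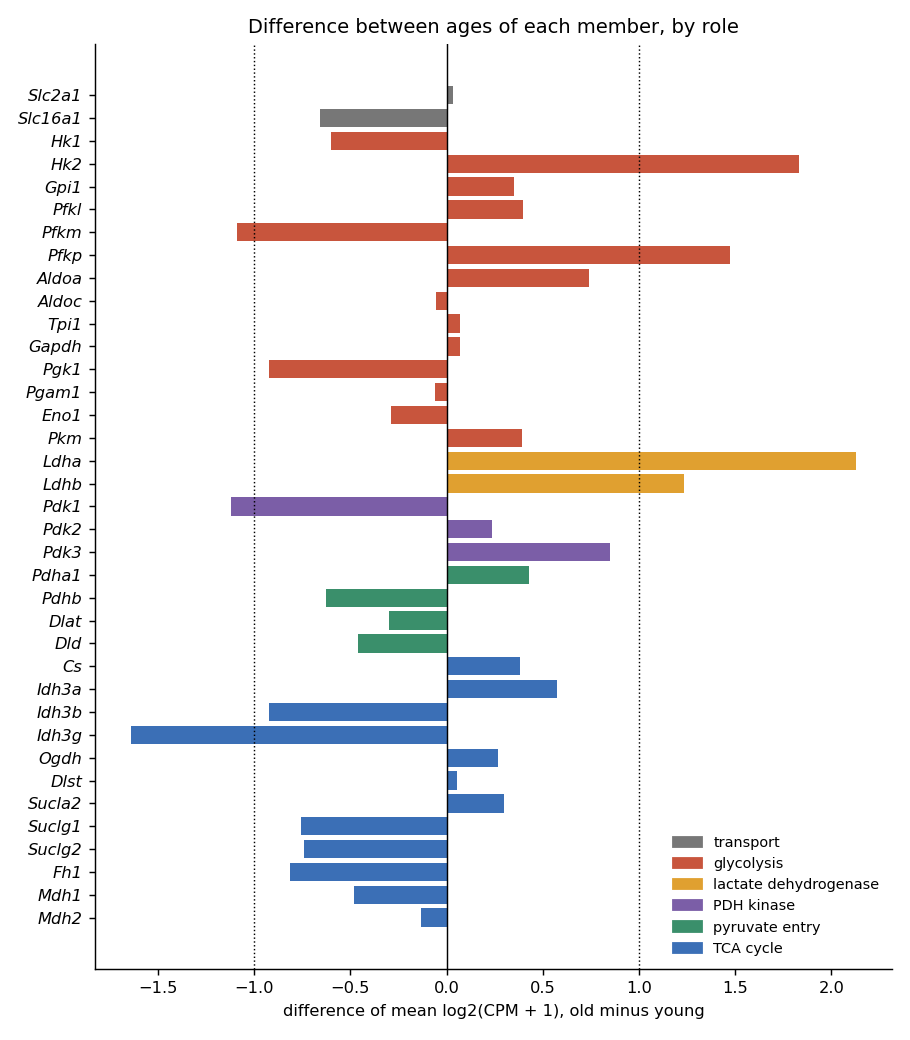
Difference of the mean log2(CPM + 1) between the 62 old and the 52 young cells for each of the 37 members, coloured by role, with dotted lines at -1 and 1. *Ldha* (2.13) and *Hk2* (1.83) reach furthest to the right and *Idh3g* (-1.64) furthest to the left, and bars of both directions occur in each role but lactate dehydrogenase.

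Regulatory sequence upstream of these genes was read for letters known from the control of glycolysis genes. ACGTG is the core of many hypoxia response elements, at which hypoxia-inducible factors bind, and CACGTG is the E-box that MYC and related factors bind. ACGTG occurred on either strand in the 250 bases before the RefSeq start of 13 of the 36 members that have a promoter in the RefSeq table (36.1%), against 16.6% of all 27025 promoters and 21.2% of the 11229 promoters of genes in the count table. CACGTG, each of which holds ACGTG on both strands, occurred in 4 of 36 (11.1%), against 6.05% and 8.13%. Of the 7 members that differed by at least 1, ACGTG was found before *Ldha*, *Hk2*, *Pfkm* and *Idh3g* and not in the windows of *Pfkp*, *Ldhb* and *Pdk1*. Other forms of the hypoxia response element were not searched for. A window without ACGTG is therefore not shown to lack such an element. The windows of those 4 genes are shown because they contrast 2 genes with a higher and 2 with a lower level in old cells that carry the same letters (GRCm38, RefSeq, read 5′ to 3′ towards the start, matches on either strand in capitals):
*Ldha* (chr7:46845554-46845803, plus strand): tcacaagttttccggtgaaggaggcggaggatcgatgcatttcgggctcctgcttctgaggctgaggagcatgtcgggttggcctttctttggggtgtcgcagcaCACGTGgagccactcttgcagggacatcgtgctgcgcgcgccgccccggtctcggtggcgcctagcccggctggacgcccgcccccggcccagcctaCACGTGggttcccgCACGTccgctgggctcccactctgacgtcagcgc
*Hk2* (chr6:82774455-82774704, minus strand): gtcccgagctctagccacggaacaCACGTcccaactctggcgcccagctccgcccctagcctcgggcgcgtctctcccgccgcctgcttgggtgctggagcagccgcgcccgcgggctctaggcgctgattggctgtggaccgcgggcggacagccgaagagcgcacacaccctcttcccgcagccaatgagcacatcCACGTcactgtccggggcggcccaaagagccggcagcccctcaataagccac
*Pfkm* (chr15:98092339-98092588, plus strand): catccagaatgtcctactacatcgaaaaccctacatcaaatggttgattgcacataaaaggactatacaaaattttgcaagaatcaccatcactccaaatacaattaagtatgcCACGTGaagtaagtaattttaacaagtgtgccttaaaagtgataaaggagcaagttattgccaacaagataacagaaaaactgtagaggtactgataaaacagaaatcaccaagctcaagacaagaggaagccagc
*Idh3g* (chrX:73786898-73787147, minus strand): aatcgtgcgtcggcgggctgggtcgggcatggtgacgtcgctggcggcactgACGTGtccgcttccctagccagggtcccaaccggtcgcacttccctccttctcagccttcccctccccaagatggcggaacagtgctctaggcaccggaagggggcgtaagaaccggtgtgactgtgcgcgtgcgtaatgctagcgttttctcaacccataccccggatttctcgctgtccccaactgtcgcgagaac
*Ldha* held 3 separate matches, 2 of them CACGTG, which begin 145, 48 and 34 bases before the start. The RefSeq span of *Ldha* begins upstream of this window, so a further start is annotated there. For *Ldha*, *Pgam1*, *Ogdh* and *Mdh1*, which are among the genes with ACGTG, no start of a paired GENCODE transcript was found at the promoter. The same held for *Eno1* and *Suclg2*, which had no match, so the windows of these genes are uncertain. *Hk2* held 2 matches, at 226 and 52 bases, *Pfkm* 1 CACGTG at 136 bases, and *Idh3g* 1 match at 198 bases. Genes with these letters thus lay on both sides of the comparison, and no binding was measured.

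Of the transporters, *Slc2a1* (GLUT1, the glucose transporter of many dividing cells) was found in 8 young and 8 old cells. Its mean level was 0.85 in young and 0.88 in old cells, but its summed reads, 1872 in young and 7572 in old cells, gave a log2 ratio of 2.23 after scaling to all counted reads. A single old cell held 4060 of these reads and a single young cell 893, and without them the ratio was 2.06. The few old cells with *Slc2a1* therefore carried more of it, at a mean level of 6.39 against 5.42 in the young cells that expressed it. *Slc16a1* (MCT1, a lactate and pyruvate carrier) was expressed in 19 young and 18 old cells, with levels of 2.16 and 1.5.

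Hexokinases phosphorylate glucose at the entry of glycolysis, and HK1 and HK2 are the forms common outside liver. *Hk2* (chromosome 6, 82725025 to 82774454, GRCm38 here and below) ranged from 0 to 10.44 in young cells with a median of 0.31, and from 0 to 11.31 in old cells with a median of 2.89. Many cells of each age had no or few reads. It was expressed in 18 of 52 young cells (34.6%, 95% exact interval 22 to 49.1%) and in 32 of 62 old cells (51.6%, 38.6 to 64.5%), and its mean level was 2.47 ± 3.48 and 4.30 ± 4.2 (SD over cells). With a difference of 1.83, both the share of expressing cells and the level among them, 7.87 against 6.72, were higher in old cells. Among cells with cell cycle genes the difference was 0.89. *Hk1* was expressed in 34 cells at each age, with levels of 3.68 in young and 3.08 in old cells.

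Phosphofructokinase commits the sugar to glycolysis and has a liver (PFKL), a muscle (PFKM) and a platelet form (PFKP). *Pfkl* was the form found in most cells, expressed in 48 young and 58 old cells at levels of 4.03 and 4.42. Its medians of 3.33 and 3.71 lay not far above the limit of 2. *Pfkp* (chromosome 13, 6579874 to 6649060) ranged from 0 to 9.62 in young and from 0 to 9.83 in old cells, with medians of 0 and 1.17. Young cells expressed it in 10 of 52 cases (19.2%, 9.63 to 32.5%) and old cells in 26 of 62 (41.9%, 29.5 to 55.2%). Its mean level was 1.20 ± 2.46 in young and 2.68 ± 3.25 in old cells, a difference of 1.47, while the cells that expressed it did so at 5.83 and 5.79. More old than young cells thus expressed *Pfkp*, at a like level.

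*Pfkm* (chromosome 15, 98092589 to 98132447) went the other way. It ranged from 0 to 9.64 in young and from 0 to 9.63 in old cells, with medians of 0 at both ages, and was expressed in 14 of 52 young (26.9%, 15.6 to 41%) and 5 of 62 old cells (8.06%, 2.67 to 17.8%). Its mean level was 1.80 ± 2.95 in young and 0.71 ± 2.09 in old cells, a difference of -1.09. The summed reads, 6495 and 4231, gave a log2 ratio of only -0.41, since 1 old cell held 2931 of the reads, and the ratio without the highest cell of each age was -1.64. The difference was under 1 in size among cells with at least 1000000 reads (-0.74) and after thinning each cell to 250000 reads (-0.94).

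**Figure D2:**
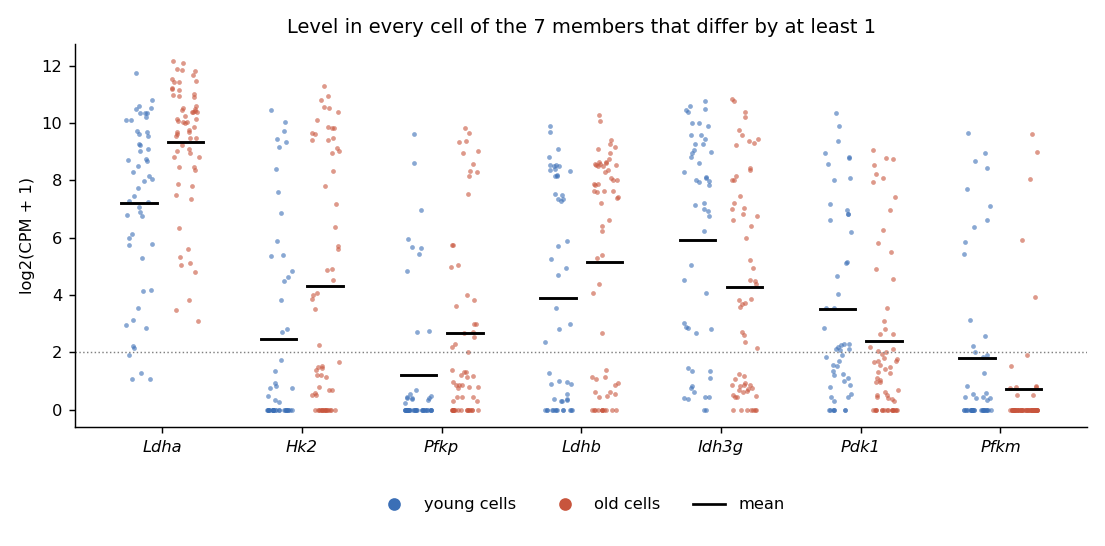
Log2(CPM + 1) in each of the 52 young (blue) and 62 old (red) cells for the 7 members that differ by at least 1, with the mean as a black line and the limit for an expressing cell (2) dotted. Cells at 0 lie beside cells above 8 at both ages for the 6 genes other than *Ldha*, whose lowest cell is at 1.06 in young and 3.09 in old cells.

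The glycolysis enzymes other than hexokinase and phosphofructokinase each differed by less than 1 between the ages. *Gapdh*, which makes the first NADH of the pathway, and *Gpi1*, the isomerase, were expressed in every cell, *Gapdh* at 8.85 ± 1.76 in young and 8.92 ± 1.72 in old cells and *Gpi1* at 7.63 and 7.99. *Pkm* (pyruvate kinase, the last step) was expressed in 48 young and 58 old cells at 7.79 and 8.19. *Aldoa*, the main aldolase, was expressed in 47 and 57 cells at 7.09 and 7.83, and *Aldoc* in 7 and 8 cells. *Tpi1* (triosephosphate isomerase) stood at 4.87 and 4.94 and *Pgam1* (phosphoglycerate mutase) at 3.78 and 3.72, with each expressed in at least 28 cells per age. *Pgk1* (phosphoglycerate kinase) was 5.36 in young and 4.43 in old cells, a difference of -0.92, although 37 of 52 and 43 of 62 cells expressed it. *Eno1* (enolase) stood low for a glycolysis enzyme, at 2.63 and 2.34, beside 4.37 and 4.38 for the near-identical gene *Eno1b*, and *Aldoart1*, a near copy of *Aldoa*, stood at 2.22 and 2.81. Reads of such pairs may have been divided between the copies, so the values of *Eno1* and *Aldoa* are uncertain. Of 9 listed near copies 5 had an entry in the count table and 4 had reads. Reads that went to copies without an entry cannot be seen, so values of other members may be affected too. The median difference of the 14 glycolysis genes was 0.07, with 8 higher and 6 lower in old cells.

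Lactate dehydrogenase is a tetramer of A chains, which favour lactate formation, and B chains, which favour its return to pyruvate. *Ldha* (chromosome 7, 46842274 to 46855627) ranged from 1.06 to 11.73 in young cells with a median of 8.02, and from 3.09 to 12.15 in old cells with a median of 10.02. Old cells were shifted upwards as a whole, although the ages overlapped over most of the range. It was expressed in 48 of 52 young cells (92.3%, 81.5 to 97.9%) and in 62 of 62 old cells (100%, 94.2 to 100%). The mean level was 7.20 ± 3.00 in young and 9.33 ± 2.25 in old cells. The difference of 2.13 ranked *Ldha* at place 75 of 15014 genes from the highest, and the summed reads of 68571 and 148506 (95% exact Poisson intervals 68059 to 69086 and 147752 to 149263) gave a log2 ratio of 1.33.

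*Ldhb* (chromosome 6, 142490249 to 142507957) ranged from 0 to 9.88 in young cells with a median of 2.91, and from 0 to 10.28 in old cells with a median of 7.29. At both ages many cells lay near 0 and many others above 8. The limit was passed in 28 of 52 young (53.8%, 39.5 to 67.8%) and 40 of 62 old cells (64.5%, 51.3 to 76.3%), at mean levels of 3.92 ± 3.73 and 5.15 ± 3.77. Both chains were thus higher in old cells by at least 1, *Ldhb* by 1.23.

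The PDH kinases went in different directions. *Pdk1* (chromosome 2, 71873215 to 71903858), the form known to be induced in hypoxia, ranged from 0 to 10.36 in young cells with a median of 2.16, and from 0 to 9.05 in old cells with a median of 1.47. It was expressed in 29 of 52 young (55.8%, 41.3 to 69.5%) and 23 of 62 old cells (37.1%, 25.2 to 50.3%), at mean levels of 3.53 ± 3.25 and 2.41 ± 2.84, a difference of -1.12. The difference was -0.67 among cells with at least 1000000 reads and -0.81 among cells without cell cycle genes, and the log2 ratio of summed reads without the highest cells was -0.99. *Pdk3* was expressed in 15 young and 25 old cells at 2.03 and 2.88, and *Pdk2* in 7 and 9 cells at 0.81 and 1.05. Young and old cells without any of the 3 kinases numbered 15 of 52 and 19 of 62.

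The PDH complex itself was detected in parts. *Pdha1* and *Pdhb* encode the subunits of its first enzyme, *Dlat* the second and *Dld* the third. *Pdhb* was expressed in 29 young and 28 old cells at 3.85 and 3.22, *Pdha1* in 19 and 25 at 2.42 and 2.86, *Dld* in 20 and 19 at 2.58 and 2.12, and *Dlat* in 9 and 7 at 0.97 and 0.67. No cell of either age expressed all 4 genes, which allows a share of up to 5.77% of young and 4.84% of old cells. At least 3 of them were expressed in 12 young and 8 old cells, and none in 15 and 15. Over the 4 genes the differences had a median of -0.38.

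In the TCA cycle, 5 of 12 genes were higher and 7 lower in old cells, with a median difference of -0.31. *Ogdh*, the first subunit of the oxoglutarate dehydrogenase complex, was expressed in every cell and ranged only from 6.04 to 11.10 in young and from 6.84 to 11.46 in old cells. Its spread over cells (SD 0.92 and 0.96) was the lowest of the 37 members. *Dlst*, which encodes the next subunit of the same complex, was expressed in 13 young and 15 old cells at levels of 1.36 and 1.41.

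Isocitrate dehydrogenase 3 is built from a catalytic alpha and from beta and gamma subunits. *Idh3g* (gamma, chromosome X, 73778963 to 73786897) ranged from 0 to 10.79 in young cells with a median of 7.17, and from 0 to 10.85 in old cells with a median of 3.78. The highest cells of both ages were alike, and the middle of the old cells lay lower. It was expressed in 39 of 52 young (75%, 61.1 to 86%) and 38 of 62 old cells (61.3%, 48.1 to 73.4%), at mean levels of 5.94 ± 3.73 and 4.30 ± 3.64. The difference of -1.64 was the lowest among the members, and within expressing cells it was -1.02. It was -0.62 among cells without cell cycle genes, and the log2 ratio of summed reads was -0.66, or -0.80 without the highest cells. *Idh3b* (beta) differed the same way, 5.55 against 4.63, and *Idh3a* (alpha) the other way, 2.80 against 3.37. Cells that expressed all 3 subunits numbered 16 of 52 and 12 of 62.

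Citrate synthase (*Cs*), which opens the cycle, was expressed in 21 young and 25 old cells at 2.72 and 3.10. The succinyl-CoA ligase genes *Suclg1* (3.76 and 3.00) and *Suclg2* (3.64 and 2.90) were lower in old cells and *Sucla2* (2.08 and 2.37) higher, each by less than 1. *Fh1* (fumarase) stood at 2.13 and 1.31, expressed in 17 young and 12 old cells. Of the malate dehydrogenases, the cytosolic *Mdh1* was expressed in 47 young and 49 old cells at 6.80 and 6.32, and the mitochondrial *Mdh2* in 38 and 46 at 5.68 and 5.55.

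**Figure D3:**
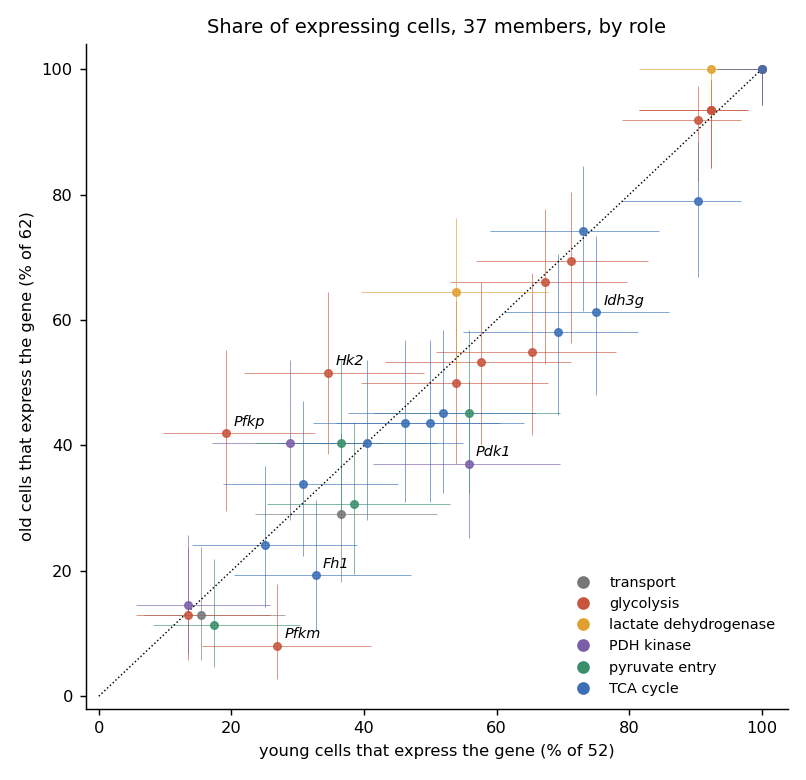
Share of the 52 young (horizontal axis) and 62 old cells (vertical axis) that express each of the 37 members, in percent, coloured by role, with 95% exact binomial intervals that cover counting error only. Members whose shares differ by at least 12 percentage points are named, and *Pfkp* (19.2% and 41.9%) and *Hk2* (34.6% and 51.6%) lie furthest above the dotted line of equal shares.

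Over the members, the share of expressing cells was larger in old cells for 12, larger in young cells for 22 and equal for the other 3, which every cell expressed. Of the 9374 genes that reached 10% of cells, 42.5% had the larger share in old and 52.8% in young cells, against 32.4% and 59.5% of the members. For none of the 37 were the intervals of the 2 ages apart, and the share of the 9374 genes with intervals apart was not determined. Among expressing cells the mean level was higher in old cells for 24 members (64.9%) and lower for 13, and it was higher for 51% of the 9367 such genes expressed at both ages. The members expressed per cell numbered 11 to 30 (median 20) in young and 12 to 31 (median 18) in old cells.

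The 4 X-linked members were *Pgk1* (-0.92), *Idh3g* (-1.64), *Pdha1* (0.43) and *Pdk3* (0.85). Their median difference was -0.25, against 0.03 for the other 33 members and -0.13 for the 284 X-linked genes other than *Xist* that reached 10% of cells. Since *Xist* and the Y-linked genes differed between the mice, sex and age cannot be told apart for them either.

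Isozyme genes of a step could be compared within a cell. *Hk1* without *Hk2* was found in 22 of 52 young cells (42.3%, 28.7 to 56.8%) and 14 of 62 old cells (22.6%, 12.9 to 35%). *Pfkl* with *Pfkp* and without *Pfkm* was found in 5 of 52 (9.62%, 3.20 to 21%) and 23 of 62 (37.1%, 25.2 to 50.3%), which was the largest gap among these combinations. Since most cells expressed *Pfkl*, this gap largely restates the shares of *Pfkp* (10 of 52 and 26 of 62) and *Pfkm* (14 of 52 and 5 of 62). Both lactate dehydrogenase genes were expressed in 25 young (48.1%, 34 to 62.4%) and 40 old cells (64.5%, 51.3 to 76.3%). *Pdk3* as the only PDH kinase was found in 6 young and 13 old cells, and *Pdk1* as the only one in 16 and 14.

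**Figure D4:**
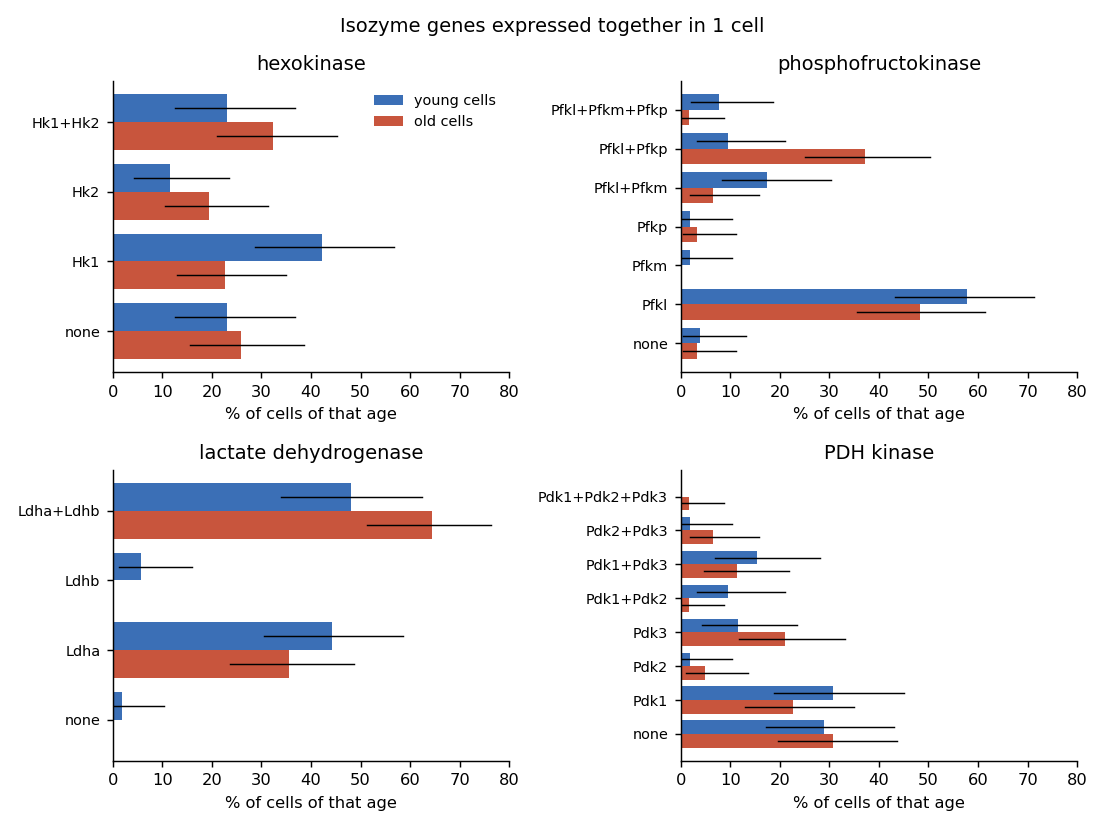
Percent of young (blue, of 52) and old (red, of 62) cells that express each combination of isozyme genes in 4 enzyme families, with 95% exact binomial intervals as black lines. The bar of *Pfkl* with *Pfkp* is 9.62% in young and 37.1% in old cells, and that of *Hk1* alone 42.3% and 22.6%.

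Divided by transcript length (the longest GENCODE transcript paired with RefSeq), mean CPM per kilobase gave the share of each isozyme in its family. *Hk2* made up 53% of *Hk1* and *Hk2* together in young and 80.7% in old cells, and 47.9% and 78.2% where *Hk3*, a gene of the wider list, was added to the sum. Of phosphofructokinase, *Pfkl* held 43.4% and 48.4%, *Pfkm* 40.5% and 15%, and *Pfkp* 16.1% and 36.6%. *Ldha* held 72.9% and 81.8% of lactate dehydrogenase. Of these 3 PDH kinases *Pdk1* held 40.5% and 11.2%, *Pdk2* 9.31% and 25.3%, and *Pdk3* 50.2% and 63.5%. Not divided by length, *Pdk1* led in young cells with 62.3% against 31.5% for *Pdk3*, and *Pdk3* led in old cells with 53.9% against 23.2%, so the order of the kinases in young cells depends on the length. These shares are of summed levels, so cells with many reads weigh most. Counted cell by cell, *Hk2* exceeded *Hk1* per length in 16 of 52 young cells and in 29 of 62 old ones. *Ldhb* exceeded *Ldha* in 16 young and 8 old cells.

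On the same scale per length, the order of the members shifted. In young cells *Gapdh* (486 CPM per kilobase) led *Pkm* (283), *Ldha* (283) and *Idh3g* (274). In old cells *Ldha* (714) led *Gapdh* (526), *Aldoa* (338) and *Pkm* (289), and *Idh3g* (158) was at place 9. *Dlat* was last at both ages, with 2.44 and 1.89 CPM per kilobase. The gap to the next gene in this order was below the SD over cells of the upper gene for each of the 36 pairs of neighbours at both ages, and the lengths rest on an annotation, not on these cells.

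Summed per cell, the 14 glycolysis genes held 670 to 6933 CPM in young cells (median 2901) and 1271 to 8521 CPM in old cells (median 3566), a ratio of medians of 1.23. The 12 TCA cycle genes held 389 to 5122 CPM (median 2553) and 283 to 5222 CPM (median 2069), a ratio of 0.811. The ages overlapped over nearly the whole range of both sums. Genes with many reads weigh most in these sums. The mean CPM in young and old cells was 117 and 334 for *Hk2*, 395 and 203 for *Idh3b*, and 365 and 211 for *Idh3g*. By mean level, 6 of the 14 glycolysis genes were lower and 5 of the 12 TCA cycle genes higher in old cells, against the direction of the sums. The ratio of glycolysis to TCA cycle CPM within a cell had a median of 1.24 in young and 1.97 in old cells. Values above 1 were found in 31 of 52 young cells and in 53 of 62 old ones, and values above 2 in 15 and 28 cells.

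**Figure D5:**
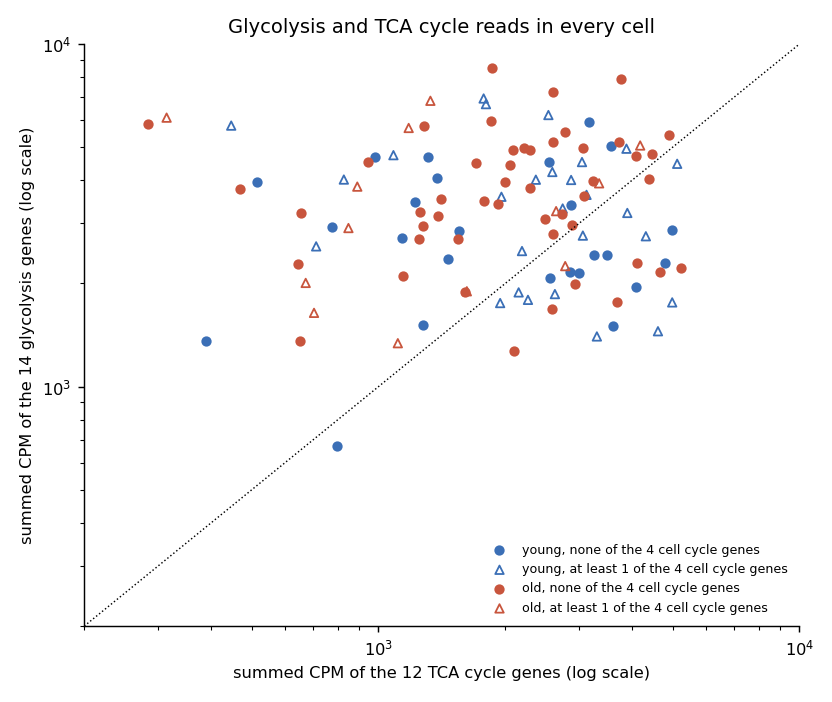
Summed CPM of the 12 TCA cycle genes (horizontal) and of the 14 glycolysis genes (vertical) in each of the 52 young and 62 old cells, on log axes, with a dotted line of equal sums. Young cells are blue and old cells red, triangles mark cells that express at least 1 of 4 cell cycle genes, and 31 of 52 young and 53 of 62 old cells lie above the line.

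Cell cycle genes were detected in more of the young cells. Of the young cells, 27 of 52 had *Ccna2*, *Ccnb1*, *Cdk1* or *Cdc25c*, genes that act from S phase to mitosis, above the limit of expression, and of the old cells 13 of 62. The S phase genes were lower in old cells for 40 of 42, with a summed level of 315 to 16310 CPM per young and 110 to 11396 CPM per old cell, and the G2/M genes for 52 of 54, with 863 to 39079 and 446 to 19131 CPM. The 25 young and 49 old cells without any of the 4 genes were compared apart from the others. Among the cells without them, the median difference of the members was 0.27, that of the glycolysis genes 0.33 and that of the TCA cycle genes 0.19. The 9374 genes that reached 10% of cells had a median of 0.06. Of the members 11 (29.7%) were higher in old cells by at least 1, against 11.8% of the 9374 genes, and 1 (2.70%) was lower, against 6.28%. The 11 were *Ldha* (2.79), *Hk2* (2.55), *Ldhb* (1.90), *Sucla2* (1.68), *Pfkp* (1.6), *Idh3a* (1.47), *Pdha1* (1.43), *Cs* (1.19), *Gpi1* (1.16), *Tpi1* (1.13) and *Pdk3* (1.08), and the lower one was *Pfkm* (-1.37). The direction of the TCA cycle median was therefore turned by leaving out the cells with cell cycle genes, whereas the summed TCA cycle CPM stayed lower in old cells, with a ratio of medians of 0.871.

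Among the cells with at least 1 of the 4 genes, the median difference was -0.75 for the members, -0.59 for the glycolysis genes and -1.32 for the TCA cycle genes, against -0.14 over the 9374 genes. Of the members 3 (8.11%) were higher by at least 1, against 11.4%, namely *Pfkp* (1.91), *Ldha* (1.85) and *Pfkl* (1.19), and 17 (45.9%) were lower, against 19.1%. The lowest were *Idh3g* (-2.33) and *Suclg1* (-2.09). *Ldha* and *Pfkp* were thus higher and *Pfkm* lower by at least 1 in both sets of cells, while *Ldhb* differed by 1.90 among cells without the 4 genes and by -0.44 among those with them. The old cells with cell cycle genes were only 13, and they expressed a median of 3760 genes, against 4614 for young cells with them. Without them the medians were 3862 for young and 3939 for old cells. The part of the number of expressed genes in these values was not tested. The cells with the 4 genes were not matched between the ages for the mean level of 96 S and G2/M genes. Among the old ones C3 (6.28), D4 (4.42) and G9 (3.58) stood highest and the others at 2.65 or less. The median over all old cells was 1.62. The young ones ranged from 1.38 to 6.46, with B8 (6.09), E7 (6.04) and C6 (5.78) also high. Old cells without the 4 genes included B6 (5.22) and H8 (4.24). The set with the 4 genes thus does not compare cells of a like cell cycle level.

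Within the young cells, 30 of 37 members were higher in cells with than without the 4 genes, with a median difference of 0.91, and 11 of 12 TCA cycle genes were among them. This is 81.1% of the members, against 63.1% of the 9374 genes with a median of 0.25. Within the old cells 13 of 37 members (35.1%) were higher, with a median of -0.33, against 52.5% and 0.04 for the 9374 genes. *Dld* (2.63), *Sucla2* (2.56), *Idh3g* (2.14) and *Pgk1* (2.04) had the highest differences in young cells, and *Gapdh* (-0.23), *Pkm* (-0.12) and *Ogdh* (-0.05) were nearly level. Across cells of an age, the mean level of the 12 TCA cycle genes was correlated with that of 96 S and G2/M genes at Pearson r = 0.45 (rho 0.42, n = 52) in young and 0.43 (rho 0.33, n = 62) in old cells. It was correlated with the number of genes expressed per cell at r = 0.56 and 0.64, and that number with the cell cycle level at 0.70 and 0.64. The mean level of the 14 glycolysis genes was correlated with the cell cycle level at r = 0.41 (rho 0.51) in young and 0.32 (rho 0.24) in old cells. This glycolysis level was correlated with the number of genes expressed at 0.59 and 0.49, and with the TCA cycle level at 0.26 and 0.49. These are the 12 correlations computed, given as descriptions, and the measures share the libraries and their depth.

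Other genes of these pathways, 57 on a list of isozymes, regulators and neighbouring enzymes, of which 48 had reads, showed a median difference of -0.10, with 18 higher and 30 lower in old cells. Of the 33 that reached 10% of cells, 4 differed by at least 1. Of these 1 was higher and 3 were lower in old cells, against 6.24% and 6.98% of the 9374 genes that reached 10% of cells. The 4 are therefore not read as a property of the list. *Idh2*, the mitochondrial NADP-dependent isocitrate dehydrogenase, ranged from 0 to 10.07 in young cells with a median of 6.15, and from 0 to 10.09 in old cells with a median of 0.53. Of the cells, 38 young and 21 old ones expressed it, at mean levels of 5.12 and 2.22, a difference of -2.90 that exceeded that of every member in size. *G6pc3* (a glucose-6-phosphatase) was at -1.30, *Pck2* (mitochondrial phosphoenolpyruvate carboxykinase) at -1.13, and *Pdp2*, a phosphatase that counters the PDH kinases, at 1.18. The 4 subunits of succinate dehydrogenase, which links the cycle to the respiratory chain, stood between -0.36 (*Sdha*) and -0.12 (*Sdhd*).

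Over all cells of the table, 61 young and 74 old, the differences of the 7 members kept their sign, and they were 2.19 for *Ldha*, 1.68 for *Hk2*, 1.67 for *Pfkp*, 1.16 for *Ldhb*, -1.67 for *Idh3g*, -1.34 for *Pdk1* and -1.28 for *Pfkm*. *Pkm* also passed 1 there, at 1.10.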

How the data were processed

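Single-cell RNA-seq counts were analysed for 61 young and 74 old HSCs. Per the labels and the study's methods, the authors made cDNA from single cells on the Fluidigm C1 system, sequenced 51-base single reads, mapped them to mm10 with TopHat 2.0.10 keeping 1 alignment per read, and counted them per RefSeq gene with rpkmforgenes. The deposited values are raw counts per gene and cell, without normalization. Whether the counting used strand is not given in the sources used here. No 2 cells held identical counts.

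Counts were scaled to 1000000 per cell (CPM). Levels are means of log2(CPM + 1) over cells, differences are old minus young, expressing cells exceed 2, and a difference counts from 1, on a scale that understates changes of genes with few reads. No test was made, since each age was 1 mouse and its cells are no replicates of an age. Shares carry 95% exact Clopper-Pearson intervals and summed counts 95% exact Poisson intervals. Reads had no molecular identifiers, so both cover counting error only. A count of 0 was taken to allow 3 cells.

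Positions and promoters are from RefSeq (GRCm38, the build of mm10) and matched 37 and 36 members. Transcript lengths are from GENCODE. Named were all members by role, in full those that differed by at least 1, other pathway genes expressed in at least 10% of cells that differed by at least 1, and at most 4 genes per marker list. The succinate dehydrogenase genes and the near copies of *Eno1* and *Aldoa* were named outside this rule, after their values were seen. Members and lists were chosen with earlier results of these data known. Alternatives were all cells, the 58 young and 70 old cells that passed the second set of quality criteria (Kowalczyk et al.), cells with at least 1000000 counted reads, cells without 4 cell cycle genes, ratios of summed counts, a pseudocount of 0.1 CPM, poscounts factors (DESeq2 1.42.0), TMMwsp factors (edgeR 4.0.16), thinning to 250000 reads, a filter at 10% of cells, 1 counted read as the limit of expression, and isozyme shares not divided by length. The cells with cell cycle genes, summed ratios without the highest cell of each age, and all alternatives for the ratio of glycolysis to TCA cycle reads were added after seeing the data. The steps were also run on simulated counts with changes set only in genes above a limit of mean CPM. That run does not cover members with few reads. The tools were R 4.3.3 and Python 3.11.15 with scipy 1.17.1, numpy 2.4.6, pandas 2.3.3 and matplotlib 3.10.9.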

Additional observations from a re-analysis of the deposited data

How the results depend on the processing

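A difference was taken as unmoved when it shifted by less than the log2 of 1.5, and a count or ratio when it stayed within 1.5 times. Of the 37 members' differences, 37 were unmoved with the Kowalczyk et al. cells, the deeper cells, both sets of factors and thinning, 36 with all cells of the table, 33 with a pseudocount of 0.1 CPM, 25 with summed counts, 18 in cells without and 18 in cells with the 4 cell cycle genes. Unmoved values can still pass below 1 in size, as *Pdk1* (-0.67) and *Pfkm* (-0.74) did in the deeper cells and *Pfkm* (-0.94) after thinning. Of 12 settings, 12 kept *Ldha* and *Pfkp* past 1, 11 kept *Hk2* and *Ldhb*, and 9 kept *Idh3g*, *Pdk1* and *Pfkm*. The filter at 10% of cells, 1 of the 12, removed no member and so could not change any of these values. *Ldhb* was reversed in cells with the cell cycle genes (-0.44). The members lower by at least 1 numbered 1 without the cell cycle genes, 17 with them and 7 with the pseudocount of 0.1 CPM. Those higher by at least 1 numbered 11 without the cell cycle genes and 8 by summed counts. The share of all genes that differed by at least 1 was not determined for the pseudocount or for summed counts. The 7 and the 8 are therefore not read as a property of the members. In cells with cell cycle genes the median differences were -0.75 (members), -0.59 (glycolysis) and -1.32 (TCA cycle), and the TCA cycle ratio of medians was 0.456. The TCA cycle median turned positive, at 0.19, without the cell cycle genes, while its ratio of medians stayed below 1 there (0.871) and was 1.02 with TMMwsp factors. The ratio for glycolysis was at least 1.23 under the other settings and 0.908 in cells with cell cycle genes. The cause of these shifts was not tested. Not divided by length, the isozyme shares in young and old cells were 59.3% and 84.3% for *Hk2*, 33.7% and 11.5% for *Pfkm*, 19.3% and 40.4% for *Pfkp*, 21.1% and 13.8% for *Ldhb* (from 27.1% and 18.2%), and 62.3% and 23.2% for *Pdk1*, with the same order of the ages but *Pdk1* in place of *Pdk3* (31.5%) leading in young cells. With 1 read as the limit of expression, 53 of 74 shares left their interval.

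No paired analysis was possible because each age was 1 mouse and the numbers of cells pair nothing. No replicate was left out, for the same reason. A share counts cells with reads above the limit, not cells that hold the transcript, and no value separates age from mouse, sex-linked genes or the handling of each mouse's cells.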
